A study of Mus musculus with 12 samples.

Results

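The genes described here belong to the translation machinery and were taken by name. Gene symbols beginning with Rpl, Rps or Rplp (ribosomal proteins), Eif (initiation factors) or Eef (elongation factors) were matched, and the S6 kinase genes (Rps6k) were left out. On the array, 37 probe sets with a single gene symbol carried such a name, and they covered 25 genes. A value over 4 on the log2 scale in at least 3 of 12 arrays was required, which left 17 probe sets of 13 genes, out of 6334 probe sets tested in all. Each of the 17 probe sets exceeded 4 in all 12 arrays, so none of them entered through the arrays of 1 group alone. Where a gene had several probe sets, the one with the highest mean was used. Within this name rule, measured values were used only for that level and that mean. The rule itself was chosen with earlier results of these data known.

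Translation begins when initiation factors bring the small ribosomal subunit, with the initiator transfer RNA, to the capped end of a messenger RNA and on to the start codon. The large subunit then joins, and elongation factors deliver aminoacyl transfer RNAs. In neurons, initiation and elongation are regulated by synaptic activity, largely through phosphorylation of these factors. An array that measures messenger RNA does not see that regulation.

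Hippocampal RNA was hybridised in 4 groups of 3 arrays: labelled mutant with kainate, labelled mutant with saline, control with kainate and control with saline. Kainate excites neurons through glutamate receptors and can evoke seizures. All mice were first handled for 5 days in single cages. Kainate was given by intraperitoneal injection at 20 mg/kg, and all animals, littermates of both sexes aged 5 to 6 weeks, were killed after 1 h. Each array carried RNA pooled from 3 animals. The mutation studied is the loss of CREB and CREM, cAMP-responsive transcription factors. The sources used here name neither the alleles, nor a Cre driver, nor the genotype of the controls. The Creb1 probe set averaged 7.97 ± 0.439 and 8.23 ± 0.117 in labelled mutant arrays with kainate and saline, against 6.98 ± 0.154 and 7.35 ± 0.35 in control arrays (log2, SD, n = 3 each). The level was thus higher, not lower, where the label says mutant. Single arrays had 7.64 to 8.47 where labelled mutant, against 6.83 to 7.58 in control arrays. Where the probe set lies relative to any deleted part is not given, so each genotype direction below rests on the label. Markers of hippocampal principal neurons were present, with Slc17a7, the vesicular glutamate transporter, at group means of 10.7 to 10.8. Array medians lay between 3.77 and 4.07, and precision is limited by having 3 arrays in a group.

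Although ribosomal proteins were searched for, none was measured here. No ribosomal protein gene was among the 13 genes. Rpl27, a large subunit protein, was the only one with a probe set of its own, and that probe set stayed between 3.35 and 3.93. A further 8 probe sets matched the names but carried several symbols, and no gene is named from them. Of the 12 genes that failed the level, the one nearest to it was Eif3i, a subunit of the scaffold factor eIF3, which ranged from 3.73 to 4.04 and exceeded 4 in 2 arrays. The nearest gene inside was Eif4e2, which ranged from 4.29 to 4.89. The other genes below the level were Eef2, the translocase of elongation, and its kinase Eef2k, the eIF2 kinases Eif2ak1 and Eif2ak2, the eIF2B subunit Eif2b2, the eIF3 subunits Eif3d and Eif3f, Eif6, Eef1g and the methyltransferase gene Eef1aknmt. Of 28 translation genes listed by role, such as Rps6, Eif4e and Eef1a1, only Eif4g2 and Eif5b were among the 13.

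Promoter windows of RefSeq (GRCm38.p6, 250 bases before to 50 after an annotated start) were found for 9 of the 13 genes. The windows were searched for the cAMP response element because CREB binds it. The full element, TGACGTCA, occurred in none of the 9 genes, against 2.03% of 27025 genes. Among the genes below the level, Eef2 carried it. The short form, TGACG on either strand, occurred in 4 of the 9, against 23% of all genes. It also occurred in 4 of 9 genes below the level that have a window. Full elements contain the short form. Those 4 stretches are shown because the study removes the factors that bind such letters, and capitals mark the short form. All lie before the start, on the plus strand of Eif4e2 (chr1:87213851-87213910), Eif5a2 (chr3:28781147-28781206), Eif4enif1 (chr11:3202293-3202352) and Eif1ad (chr19:5366703-5366762).
Eif4e2: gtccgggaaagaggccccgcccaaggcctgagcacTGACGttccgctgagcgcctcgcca
Eif5a2: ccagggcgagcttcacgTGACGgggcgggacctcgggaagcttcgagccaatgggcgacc
Eif4enif1: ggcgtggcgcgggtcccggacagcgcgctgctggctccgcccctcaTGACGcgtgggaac
Eif1ad: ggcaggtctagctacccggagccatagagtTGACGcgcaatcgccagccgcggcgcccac

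A run of pyrimidines at the start of the messenger RNA, known from ribosomal protein genes, was also searched on the coding strand, as a C at position -2 to +3 followed by at least 4 bases that are C or T. It was found in 36.7% of 60 ribosomal protein genes and in 10.6% of all genes with a window. Among the 9 genes it was found in 1, Eif1ad. These matches describe letters and not binding or control.

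In no comparison did any of the 13 genes pass the test over all 6334 probe sets (limma, Benjamini-Hochberg adjusted p under 0.05). For kainate against saline, 0 of 13 passed in labelled mutant and 0 of 13 in control arrays, where 0.174% and 0.158% of all probe sets passed. For labelled mutant against control, 0 of 13 passed with kainate and 0 with saline, where 0.0632% and 0% of all probe sets passed. For the difference of the kainate changes between genotypes, 0 of 13 and 0% of all probe sets passed. Averaged over genotypes for kainate, or over treatments for genotype, 0 of 13 passed, against 0.410% and 0.253% of all. A count of 0 of 13 is close to shares this small. At an unadjusted p under 0.05 there were 0 of 13 for kainate in labelled mutant arrays, against 6.28% of all probe sets, and 2 (15.4%) for kainate in controls, against 11.6%. There was 1 (7.69%) for genotype with kainate, against 4.67%, and 0 for genotype with saline, against 3.88%. There was 1 (7.69%) for the difference, against 2.32%, 2 (15.4%) for averaged kainate, against 14.7%, and 0 for averaged genotype, against 6.47%. With the replicate number as a block in the model, 0 of the 13 genes passed in each of the 7 comparisons, where 0.363%, 0.584%, 0.111%, 0.142%, 0%, 7.63% and 2.32% of all probe sets passed in the same order.

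**Figure D1:**
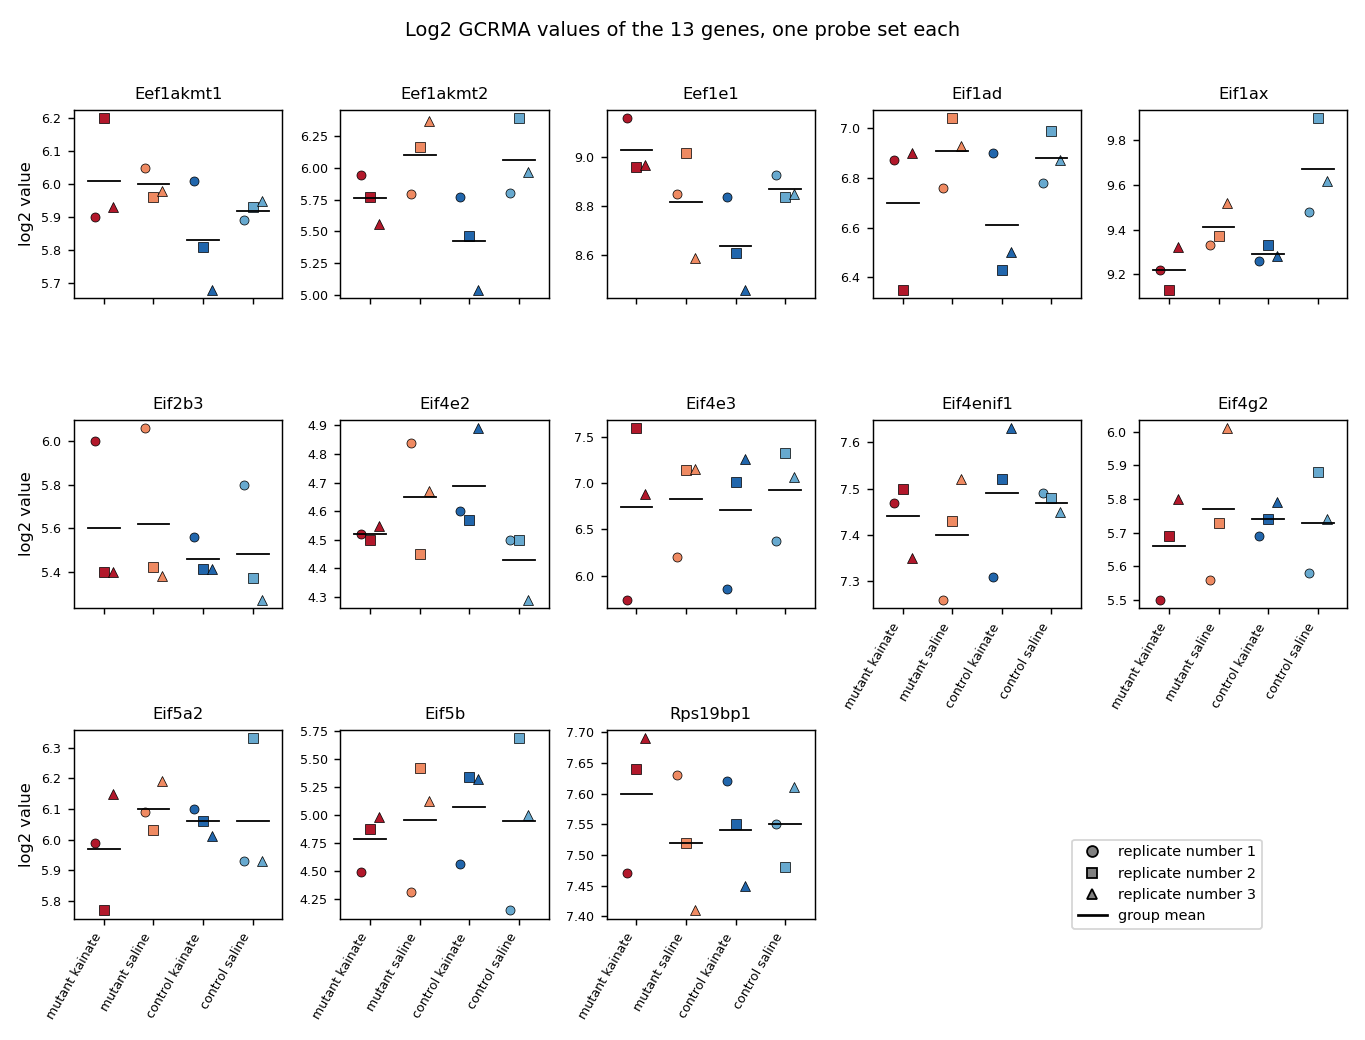
Log2 GCRMA value of each of the 13 genes (vertical axis, a scale of its own in each panel) in the 12 arrays by group (horizontal axis), with the mean of 3 arrays as a line and the replicate number as the symbol. In the panels of Eif4e3, Eif5b and Eif4g2 the arrays numbered 1 lie lowest in every group, and in that of Eif2b3 they lie highest.

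The shifts of the 13 genes were small. The median log2 difference for kainate was -0.11 in labelled mutant and -0.03 in control arrays, against -0.04 and 0.02 over all tested probe sets. In both genotypes 9 of 13 genes lay below 0, where 58.3% of all probe sets did so in labelled mutant and 46.7% in control arrays. For labelled mutant against control the median was 0.03 with kainate and 0.03 with saline, against -0.03 and 0.02 over all probe sets. Single genes ranged from -0.63 to 0.25 for kainate in controls and from -0.35 to 0.21 for kainate in labelled mutant arrays. Kainate arrays of the control group had higher array medians than their saline arrays. Centring each array on its median moved the median of all probe sets by -0.14 for kainate in controls and by 0.19 for the difference of responses. The median size of the 13 genes' own differences, regardless of sign, was 0.13 and 0.12 in these comparisons.

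**Figure D2:**
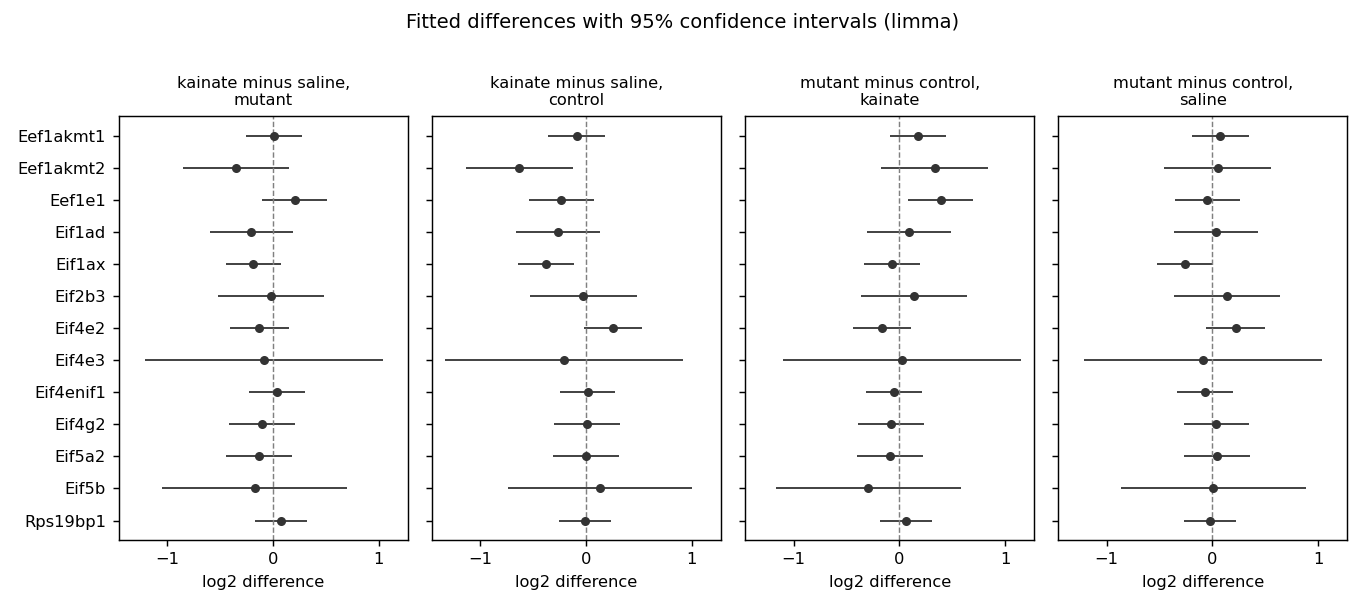
Fitted log2 difference of each gene with its 95% confidence interval from the fit without the block (horizontal axis) in 4 comparisons of 3 against 3 arrays, with the gene on the vertical axis. Intervals of Eif4e3 and Eif5b are the widest, and 3 intervals leave out 0, those of Eif1ax and Eef1akmt2 for kainate in controls and that of Eef1e1 for genotype with kainate.

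Among the factors that scan for the start codon, Eif1ax encodes eIF1A, which binds the small subunit and helps it select the start, and lies on the X chromosome. Its main probe set had 9.22, 9.13 and 9.32 in labelled mutant kainate arrays, against 9.33, 9.37 and 9.52 in labelled mutant saline arrays. Control kainate arrays had 9.26, 9.33 and 9.28, against 9.48, 9.90 and 9.62 in control saline arrays. In both genotypes all kainate arrays lay below all saline arrays. The difference was -0.19 in labelled mutant arrays (SE 0.119, 95% interval -0.45 to 0.08, limma adjusted p = 0.916). It was -0.38 in control arrays (SE 0.119, 95% interval -0.64 to -0.12, limma adjusted p = 0.424), so neither passed. Neither did so with the block (adjusted p = 0.472 in labelled mutant and 0.111 in control arrays). Averaged over genotypes the difference was -0.28 (SE 0.0839, 1.22-fold lower), with a limma adjusted p of 0.173, and of 0.0537 with the block. With the block and each array centred on its median it passed, at -0.33 (limma adjusted p = 0.0496), where 4.12% of all probe sets passed.

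Counts of genes without overlap between kainate and saline were low. In labelled mutant arrays it held for Eif1ax alone, 1 of 13 genes or 7.69%, against 9.13% of all probe sets. In control arrays it held for Eif1ax, Eef1akmt2 and Eif4e2, 3 of 13 or 23.1%, against 19.4%. Both shares are near those of all probe sets.

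The pools differed in Xist, the RNA that marks cells with an inactive X chromosome. Its probe set had 6.37 in replicate 2 of labelled mutant saline and 5.28 in replicate 2 of control saline, and 3.31 to 3.97 in the other 10 arrays. The highest Eif1ax value, 9.90, was in the second of these arrays. Without both arrays, a setting chosen after the data were seen, the Eif1ax difference for kainate was -0.20 in labelled mutant and -0.26 in control arrays (limma adjusted p = 0.998 and 0.536). The part of the sex of the pooled animals in the Eif1ax differences was not tested.

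Eif1ax is also the only one of the 13 genes with a probe set that passed for genotype. Besides the main probe set, a second one and one with the suffix f were past the level. The suffix marks a probe set made for a family of like sequences. This family probe set had 9.35, 8.83 and 8.84 in labelled mutant kainate arrays and 9.32, 9.02 and 8.86 in labelled mutant saline arrays. In control kainate arrays it had 8.97, 8.25 and 8.20, and in control saline arrays 9.11, 8.68 and 8.57. At every replicate number the labelled mutant array exceeded the control array of the same treatment. Averaged over treatments it was higher by 0.41 in labelled mutant arrays (SE 0.171, 1.33-fold, limma adjusted p = 0.715). With the replicate number as a block the adjusted p was 0.0196, in a comparison where 2.32% of all probe sets passed. With the block and quantile normalization it was 0.43 (adjusted p = 0.0157), and with the block and median centring the call was lost (adjusted p = 0.0617). The other probe sets lay on the other side of 0, at -0.16 for the main one (SE 0.0839) and -0.10 for the second (SE 0.118). The genotype call was thus made by 1 of the 3 probe sets past the level, out of 5 that carry the gene's symbol. For kainate all 3 probe sets lay below 0 in both genotypes, from -0.32 to -0.06 in labelled mutant and from -0.38 to -0.24 in control arrays, and none passed.

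**Figure D3:**
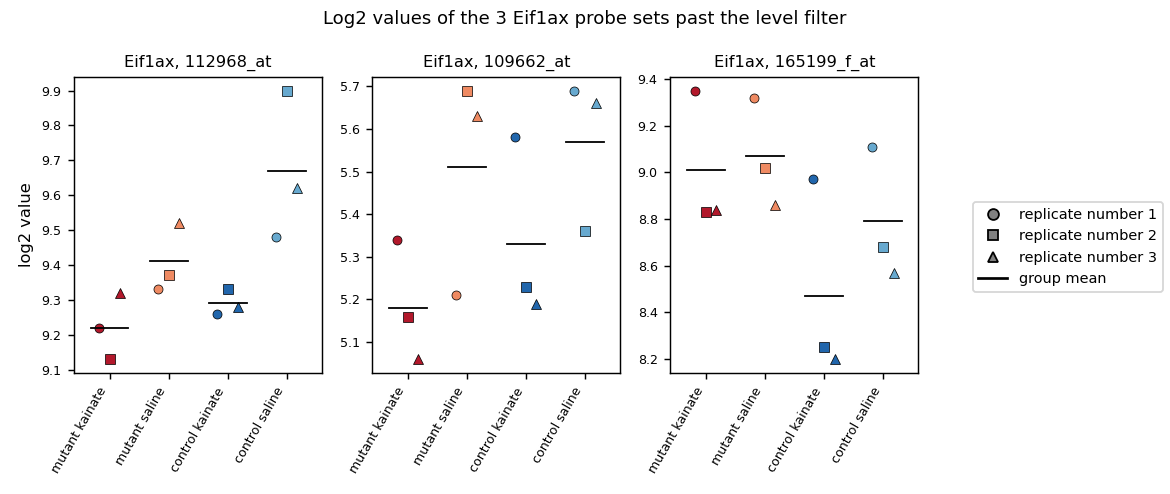
Log2 values of 3 Eif1ax probe sets (vertical axis, a scale of its own in each panel) by group (horizontal axis), with the mean of 3 arrays as a line and the replicate number as the symbol. Labelled mutant means exceed control means in the panel of the family probe set (suffix f) and not in the other panels.

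The stretch before the Eif1ax start is shown because, of the 13 genes, this one gave the lowest p for averaged kainate and the one genotype call by a further probe set. It is rich in GC boxes, GGGCGG or its complement, a motif bound by Sp1 factors. The 70 bases at chrX:159372108-159372177 (GRCm38.p6, plus strand) end just before the start and hold 8 matches, which overlap in part and stand in capitals. GC boxes occurred in 7 of the 9 genes with a window, against 38.2% of all genes. They also occurred in 6 of 9 genes below the level that have a window.
Eif1ax: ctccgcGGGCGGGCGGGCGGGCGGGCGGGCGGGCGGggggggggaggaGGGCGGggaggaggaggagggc

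Eif1ad, which encodes a protein with an eIF1A domain, had 6.87, 6.35 and 6.90 in labelled mutant kainate arrays, against 6.76, 7.04 and 6.93 in labelled mutant saline arrays. Control kainate arrays had 6.90, 6.43 and 6.50, against 6.78, 6.99 and 6.87 in control saline arrays. In controls, kainate replicates 2 and 3 lay below all saline arrays, in labelled mutant arrays only replicate 2 did, and the other kainate arrays lay among the saline values. The difference was -0.20 in labelled mutant (SE 0.179) and -0.27 in control arrays (SE 0.179), and neither passed (limma adjusted p = 0.976 and 0.505, with the block 0.643 and 0.337). Without labelled mutant kainate replicate 2 the labelled mutant difference was -0.03.

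Eif5b encodes the GTPase eIF5B that joins the subunits. Its values were 4.49, 4.87 and 4.98 in labelled mutant kainate arrays and 4.31, 5.42 and 5.12 in labelled mutant saline arrays. In control kainate arrays it had 4.56, 5.34 and 5.32, and in control saline arrays 4.15, 5.68 and 5.00. Values of the groups overlapped throughout. The genotype difference with kainate, -0.29, had a 95% interval from -1.17 to 0.58, and from -0.69 to 0.10 with the block, which takes up the spread between replicate numbers (SE 0.395 without and 0.178 with it). Eif5a2 encodes a second eIF5A, the hypusine-carrying factor that helps the ribosome past difficult peptide bonds. It ranged from 5.77 to 6.33 with a median of 6.04, and its differences ran from -0.13 to 0.04 in the 4 comparisons of groups.

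Among cap-binding factors, Eif4e2 encodes 4EHP, which binds the cap without recruiting eIF4G and represses translation. It had 4.52, 4.50 and 4.55 in labelled mutant kainate arrays, against 4.84, 4.45 and 4.67 in labelled mutant saline arrays. Control kainate arrays had 4.60, 4.57 and 4.89, against 4.50, 4.50 and 4.29 in control saline arrays. Control kainate arrays lay above both control saline and labelled mutant kainate arrays without overlap. The kainate difference was -0.13 in labelled mutant (SE 0.125) and 0.25 in control arrays (SE 0.125). The test of the difference between these, -0.38, did not pass (SE 0.176, 95% interval -0.77 to 0.01, limma unadjusted p = 0.0541, adjusted p = 1, with the block 0.553). With median centring it was -0.19, and the kainate difference in controls was 0.11. All these values stood close to the level of 4.

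Eif4e3 encodes another cap-binding relative of eIF4E. Its main probe set had 5.74, 7.59 and 6.88 in labelled mutant kainate arrays and 6.20, 7.14 and 7.15 in labelled mutant saline arrays. In control kainate arrays it had 5.86, 7.01 and 7.26, and in control saline arrays 6.37, 7.32 and 7.07. The lowest value of every group was that of replicate 1. Kainate differences were -0.09 in labelled mutant and -0.21 in control arrays, each with an SE of 0.508, and of 0.19 with the block. Its second probe set gave -0.08 and -0.61 (SE 0.345), and a single array, control kainate replicate 3 at 4.19, lay far below the rest of the second probe set's values, which began at 5.12.

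Eif4enif1 encodes 4E-T, which carries eIF4E into the nucleus and sits in processing bodies. Its main probe set varied little, from 7.26 to 7.63 with a median of 7.47. The kainate difference was 0.04 in labelled mutant arrays (95% interval -0.23 to 0.30) and 0.01 in control arrays (95% interval -0.25 to 0.28). A second probe set gave -0.10 and 0.32 for the same comparisons (SE 0.149), and neither passed. Eif4g2 encodes DAP5, an eIF4G relative that lacks the eIF4E-binding part and serves cap-independent initiation. Its probe set, another with the suffix f, ranged from 5.50 to 6.01, with a median of 5.73. Its kainate differences were -0.10 in labelled mutant and 0.01 in control arrays (SE 0.14, with the block 0.111).

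Eif2b3 encodes the gamma subunit of eIF2B, the exchange factor that reloads eIF2 with GTP. It had 6.00, 5.40 and 5.40 in labelled mutant kainate arrays and 6.06, 5.42 and 5.38 in labelled mutant saline arrays. Control kainate arrays had 5.56, 5.41 and 5.41, and in control saline arrays it had 5.80, 5.37 and 5.27. Replicate 1 was the highest of its group in each case, and the other values lay within 5.27 to 5.42. The kainate difference was -0.02 in labelled mutant and -0.03 in control arrays (SE 0.227 each, with the block 0.122).

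Around elongation, Eef1e1 encodes AIMP3, a scaffold protein of the complex of aminoacyl-tRNA synthetases. It had 9.16, 8.96 and 8.97 in labelled mutant kainate arrays, against 8.84, 8.61 and 8.46 in control kainate arrays. Labelled mutant saline arrays had 8.85, 9.02 and 8.59, against 8.93, 8.84 and 8.85 in control saline arrays. With kainate all labelled mutant arrays lay above all control arrays, and with saline the genotypes overlapped. The genotype difference was 0.39 with kainate (SE 0.138, 1.31-fold, 95% interval 0.09 to 0.70) and -0.05 with saline (SE 0.138). With kainate the limma adjusted p was 0.914, and 0.206 with the block, so the difference did not pass. The kainate change differed between genotypes by 0.44 (SE 0.195, limma unadjusted p = 0.0467, adjusted p = 1, with the block 0.545). This was the smallest unadjusted p of the 13 genes for that comparison, in which 2.32% of all probe sets had an unadjusted p under 0.05.

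Eef1akmt1 and Eef1akmt2 encode lysine methyltransferases of the elongation factor eEF1A. Eef1akmt2 had 5.94, 5.77 and 5.56 in labelled mutant kainate arrays, against 5.79, 6.16 and 6.37 in labelled mutant saline arrays. In control kainate arrays it had 5.77, 5.46 and 5.04, against 5.80, 6.39 and 5.97 in control saline arrays. Replicates 2 and 3 were lower with kainate in both genotypes, whereas replicate 1 was higher with kainate in labelled mutant arrays and nearly level in controls. The difference was -0.63 in control arrays (SE 0.227, 1.55-fold lower, 95% interval -1.14 to -0.13) and -0.35 in labelled mutant arrays (SE 0.227). Neither passed (limma adjusted p = 0.424 and 0.92, with the block 0.129 and 0.496). In replicates 2 and 3 alone, the control difference was -0.93 (limma adjusted p = 0.0207), where 10.1% of all probe sets passed.

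Eef1akmt1 ranged from 5.68 to 6.20. It had 6.05, 5.96 and 5.98 in labelled mutant saline arrays, against 5.89, 5.93 and 5.95 in control saline arrays. These values did not overlap, yet the difference was 0.07 (SE 0.121, limma adjusted p = 1), and its probe set has the f suffix. Without overlap for genotype were 1 of 13 genes with saline (7.69%, against 8.81% of all probe sets) and 2 of 13 with kainate, Eef1e1 above and Eif4e2 below (15.4%, against 10.7%).

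Rps19bp1 encodes a nucleolar partner of the ribosomal protein RPS19 and had the narrowest range of the 13 genes over the 12 arrays, with values from 7.41 to 7.69. Its kainate difference was 0.08 in labelled mutant arrays (95% interval -0.17 to 0.33) and -0.01 in control arrays (95% interval -0.26 to 0.24). Its genotype difference was 0.06 with kainate and -0.03 with saline.

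Some of the 13 genes differed more between replicate numbers than between treatments or genotypes. Arrays numbered 1 were set against those numbered 2 and 3 within groups, which was decided on once the data had been looked at. Of the 13 genes 3 passed, or 23.1%, against 40.6% of all probe sets, a share below that of the whole array. Eif4e3 had 5.74 to 6.37 in the 4 arrays numbered 1, against 6.88 to 7.59 in the 8 others, a difference of -1.13 (SE 0.143, limma adjusted p = 0.000169). Its second probe set went the other way, at 0.48 (adjusted p = 0.0443), and it no longer passed under quantile normalization (adjusted p = 0.113) or when control kainate replicate 1 was left out (0.158), among others. Eif5b had 4.15 to 4.56 in arrays numbered 1, against 4.87 to 5.68 in the others, a difference of -0.84 (SE 0.134, adjusted p = 0.000728). Eif2b3 had 5.56 to 6.06 in arrays numbered 1, against 5.27 to 5.42 in the others, a difference of 0.47 (SE 0.0912, adjusted p = 0.00242). In each of these 3 genes the values did not overlap, which held for 19.4% of all probe sets.

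The labels do not say what a replicate number stands for. Beside these differences, the 3' minus 5' signal of the Gapdh control probe sets was -0.42 to -0.36 in arrays numbered 1 and -0.33 to -0.03 in the others. For beta-actin it was 1.44 to 1.74 in arrays numbered 1 and 1.51 to 1.82 in the others. The part of RNA quality in the differences was not tested. As a share of each gene's total variation, the replicate number took a median of 10% over the 13 genes and the group 12.8%, against 33.7% and 30% over all tested probe sets. These shares were not adjusted for there being 4 groups and 3 replicate numbers. Random spread alone fills part of both, on average more of the group's share. The replicate number took more than the group in 5 of the 13 genes and in 52.4% of all probe sets. It reached 87.1% for Eif4e3, 79.3% for Eif5b, 78.2% for Eif2b3 and 61.3% for Eif4g2. The group took 72.1% for Eif1ax, 56.0% for Eef1akmt2 and 53.9% for Eef1e1.

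**Figure D4:**
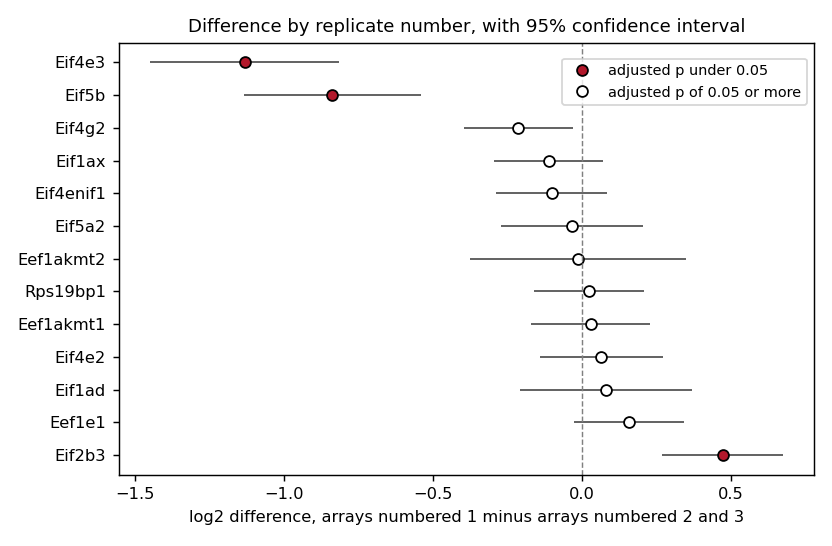
Log2 difference between arrays numbered 1 (n = 4) and arrays numbered 2 and 3 (n = 8) with its 95% confidence interval (horizontal axis) for the 13 genes (vertical axis), with filled points for an adjusted p under 0.05. Eif4e3 and Eif5b were lower and Eif2b3 was higher in arrays numbered 1.

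Other genes of translation were taken from lists by role. These lists were chosen with earlier results of these data known, so calls within them are not independent evidence. Of 54 ribosome biogenesis genes 18 were measured. Ccdc86, a nucleolar protein gene, passed, with 6.47, 6.74 and 6.90 in labelled mutant kainate arrays, against 5.43, 5.61 and 5.53 in control kainate arrays, 1.18 higher (limma adjusted p = 0.0108). It was also the only one that passed for kainate in labelled mutant arrays, at 0.94 over saline values of 5.87, 5.77 and 5.67 (adjusted p = 0.0247). In control arrays the kainate difference was -0.02. The test of the difference between these, 0.95 (SE 0.196), did not pass (adjusted p = 0.545 with the block). Of all probe sets 0.0632% passed for genotype with kainate and 0.174% for kainate in labelled mutant arrays. Ccdc86 passed for averaged genotype as well (0.70, adjusted p = 0.0244, against 0.253% of all probe sets). With the block it passed for averaged kainate too (0.46, adjusted p = 0.0218, and 0.0884 without), 1 of 18 genes where 7.63% of all probe sets passed. For averaged genotype 3 of 18 genes passed with the block, where 2.32% of all probe sets passed, with Dkc1 and Nolc1 beside Ccdc86. Dkc1, the pseudouridine synthase of small nucleolar RNPs, was higher by 0.61 in labelled mutant arrays (adjusted p = 0.0384 with the block, 0.152 without). Nolc1, a chaperone of such particles, was lower by 0.41 (adjusted p = 0.0353 with the block, 0.585 without), and its other probe set was lower by 0.45 (adjusted p = 0.0361 with the block, 0.0811 without). That other probe set stood close to the level of 4, at 4.01 to 4.13 in labelled mutant and 4.16 to 4.93 in control arrays. The median of the 18 genes was -0.02 for averaged genotype, against about 0 (-0.00264) over all probe sets. The 3 genes that passed thus lay on both sides of 0.

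Some cell type markers differed with genotype or kainate as well. The marker lists were chosen with earlier results of these data known, so the calls below are not independent evidence. The 5 astrocyte markers measured of 7 listed, Aldoc, Aqp4, Ednrb, Mlc1 and Slc1a3, summed to 43.8 to 44.6 in labelled mutant kainate and 44.8 to 46.0 in labelled mutant saline arrays, against 42.8 to 43.1 in control kainate and 43.1 to 44.5 in control saline arrays (log2 values). Averaged over treatments their median was 0.36 higher in labelled mutant arrays, and Aqp4 (0.44), Mlc1 (0.36) and Ednrb (0.36) passed with the block, in a comparison where 2.32% of all probe sets did. Without it none of the 3 passed (adjusted p = 0.0557, 0.101 and 0.244). Slc1a3 (0.23) and Aldoc (-0.02) did not pass in either fit. With the block, Siglech, the 1 microglial marker measured of 6 (summed 6.13 to 7.14 in labelled mutant kainate and 6.12 to 6.78 in labelled mutant saline arrays, against 5.66 to 6.09 in control kainate and 5.41 to 6.12 in control saline arrays), was higher by 0.61 (adjusted p = 0.0313 with the block, 0.491 without). Bcl11b, 1 of 3 principal neuron markers measured of 6, fell by 0.84 by its main probe set (adjusted p = 0.00319 with the block, 0.0557 without). Its other probe sets, at -0.16 and -0.46, did not pass, nor did Neurod2 (-0.40) or Slc17a7 (0.01). The 3 summed to 25.5 to 25.9 and 24.6 to 26.8 in labelled mutant arrays with kainate and saline, against 26.6 to 27.3 and 26.0 to 27.5 in control arrays with kainate and saline. For averaged kainate the astrocyte marker Slc1a3 was lower by 0.89 (adjusted p = 0.0301 with the block, 0.14 without), and its other probe set, at -0.24, did not pass. The other 4 astrocyte markers lay between -0.17 and 0.06. Gad2, the 1 inhibitory neuron marker measured of 6, was at -1.05 and did not pass (adjusted p = 0.0512 with the block). Its levels were 5.44 to 6.07 in labelled mutant kainate and 6.37 to 6.74 in labelled mutant saline arrays, and 4.0 to 6.05 in control kainate against 5.99 to 6.79 in control saline arrays. Clic6, the 1 choroid plexus marker measured of 5, did not pass in any comparison. It had 4.19 to 5.76 in control kainate and 6.28 to 6.72 in control saline arrays. Labelled mutant arrays had 5.08 to 6.83 with kainate and 5.3 to 7.02 with saline. In pooled tissue, fewer cells of a type and less RNA per cell cannot be told apart. The part of cell composition in the differences of Ccdc86, Dkc1, Nolc1, Rictor, Cpeb3 and Eif1ax was not tested.

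Of 23 mTOR pathway and S6 kinase genes 7 were measured. Rictor, the defining subunit of mTOR complex 2, had 7.49, 6.42 and 6.01 in control kainate arrays, against 8.03, 7.51 and 7.45 in control saline arrays. At every replicate number it was lower with kainate, and the difference of -1.02 (2.03-fold lower, SE 0.412) passed with the block (adjusted p = 0.0263) and not without (0.424). With the block 0.584% of all probe sets passed in that comparison. In labelled mutant arrays Rictor had 7.82, 6.82 and 6.56 with kainate, against 8.0, 7.36 and 7.32 with saline, a difference of -0.50 that did not pass. The test of the difference between the genotypes, 0.53 (SE 0.582), did not pass either (adjusted p = 0.552 with the block). Averaged over genotypes the fall of 0.76 passed with the block (adjusted p = 0.00938), as did 7.63% of all probe sets. It did not pass without the block (adjusted p = 0.271). None of the other 6 passed in any of the 7 comparisons, with or without the block. Among 23 genes of poly(A) binding and cap regulation 11 were measured and none passed by its main probe set. A second probe set of Cpeb3, a cytoplasmic polyadenylation factor, was lower with kainate averaged over genotypes (-0.43, adjusted p = 0.0474 with the block, 0.784 without), in a comparison where 7.63% of all probe sets passed with the block. The main Cpeb3 probe set was at -0.06 and a further one at 0.04, and neither passed. The second probe set had 3.85 to 4.7 in arrays numbered 1, against 6.13 to 7.02 in the others. Of 6 termination and recycling genes 2 were measured, of 14 stress response genes 2, of 41 genes of aminoacyl-tRNA synthetases 1, and of 5 ribosomal proteins with other names 0. None of those measured passed.

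**Figure D5:**
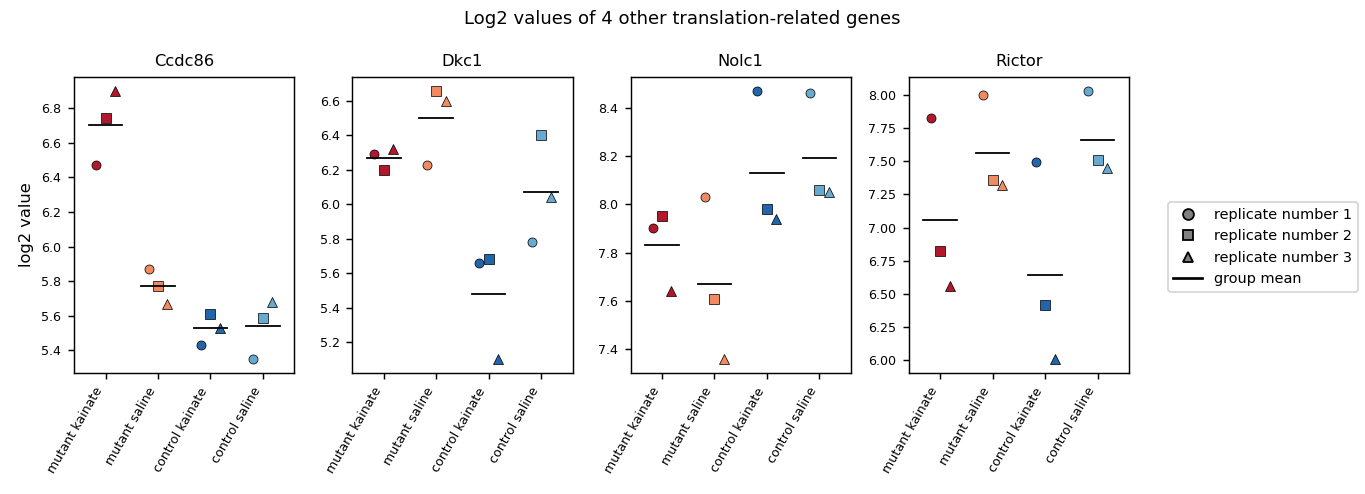
Log2 values of Ccdc86, Dkc1, Nolc1 and Rictor (vertical axis, a scale of its own in each panel) by group (horizontal axis), with the mean of 3 arrays as a line and the replicate number as the symbol. Ccdc86 is highest in labelled mutant kainate arrays, and Rictor is lower with kainate than with saline at each replicate number.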

How the data were processed

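Total RNA of mouse hippocampus, pooled from 3 animals per array, was measured on 12 Affymetrix MG-U74B arrays, 3 in each of 4 groups. The authors' deposited values are log2 summaries per probe set. The submitters' processing notes name GCRMA and R 2.4.1. Settings and genome build are not stated in any source read here. GCRMA corrects background by probe sequence. Differences near background may still be compressed. The log2 scale was judged from the values. Of 12477 entries 66 control probe sets were left out. Gene symbols came from the platform annotation, and of 10581 probe sets with 1 symbol 10550 matched RefSeq genes by Entrez identifier, with 0 symbols changed.

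Group means of 6334 probe sets were fitted with limma 3.58.1 in R 4.3.3, using eBayes with a trend on intensity. Benjamini-Hochberg adjustment ran over all of these probe sets, with a threshold of 0.05. The labels call replicates biological, and p-values measure the spread between these pools. Replicate numbers, whose meaning the labels do not give, paired the arrays. Deviations from group means correlated above 0.1 in 18 of 18 same-number pairs across groups (0.361 to 0.881), so values with the block are given where they differ most. Other alternatives were quantile normalization, centring on array medians, other level filters, no trend, the mean over probe sets, leaving out each array, replicates 2 and 3 alone and, chosen after seeing the data, leaving out both saline arrays numbered 2. The model was tested on simulated data. Genes named are those that passed with or without the block, the 6 with the smallest p per comparison and a list by role, and all others are given by range. The genes, lists and tests were chosen with earlier results of these data known. Promoter sequences are from RefSeq (GRCm38.p6).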

Additional observations from a re-analysis of the deposited data

How the results depend on the processing

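The count of 0 of 13 genes passing was unchanged under all alternatives run, apart from the following. In replicates 2 and 3 alone, 1 gene passed for kainate in controls (Eef1akmt2) and 3 for averaged kainate (Eef1akmt2, Eif1ad and Eif1ax), where 22.3% of all probe sets passed. With the replicate block and median centring 1 passed for averaged kainate (Eif1ax). With the block 1 further probe set of Eif1ax passed for averaged genotype, as it did with the block and quantile normalization. The block changed no other call of the 13 genes. Leaving out 1 array at a time gave 0 in each of the 7 comparisons, and by replicate number 3 or 4 genes. Quantile normalization gave 4 there, and median centring and the fit without a trend 3.

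Over all probe sets, the block gave 483 calls for averaged kainate against 26, 147 for averaged genotype against 16, 37 for kainate in controls against 10, and 23 for kainate in labelled mutant arrays against 11. For genotype it gave 7 with kainate against 4, and 9 with saline against 0. Replicates 2 and 3 alone gave 596 and 637 calls for kainate in labelled mutant and control arrays, and 1412 for averaged kainate.

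Medians of the 13 genes lay near 0 and moved with the setting. For kainate in labelled mutant arrays, -0.11 became -0.0567 with median centring, also with the block, -0.0629 for 25 genes with no level filter and -0.0524 in replicates 2 and 3, and leaving out 1 array gave -0.161 to -0.0252. In controls, -0.03 became -0.21 for 9 genes past a level of 6, -0.167 with median centring, 0.0282 with quantile normalization and 0.0904 with no level filter. For the difference of responses, 0.06 became 0.25 with median centring, also with the block, and -0.11 with no level filter. For genotype with kainate, 0.03 became 0.125 with median centring, also with the block, -0.0742 with no level filter and 0.0944 with the mean over probe sets, and leaving out 1 array gave -0.0676 to 0.0281. For genotype with saline, 0.03 became -0.061 with median centring, also with the block, and 0.0965 without both saline arrays numbered 2. Averaged kainate gave 0.0244 with no level filter against -0.0406, and averaged genotype 0.0584 without both saline arrays numbered 2 against 0.0179. Median centring shifts all probe sets of a comparison alike. For kainate the shift was 0.0478 in labelled mutant arrays and -0.141 in controls, and 0.189 for the difference of responses. For genotype it was 0.0969 with kainate and -0.092 with saline. The cause of the moves under other settings was not tested.

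Some uncalled differences near 0 changed sign. With median centring, also with the block, Eif5a2 gave 0.0588 for the difference of responses and 0.00949 for genotype with kainate, and Eef1akmt1 gave -0.0172 for genotype with saline. Leaving out 1 array gave -0.176 to 0.0106 for Eif5a2 with kainate, and for genotype with saline -0.0844 to 0.296 for Eif2b3, -0.128 to 0.00338 for Eif4enif1 and -0.149 to 0.0666 for Eef1e1. The 95% intervals of the 13 genes reached a median of 0.31 to either side between groups and 0.219 for averaged comparisons, and 0.27 and 0.191 with the block, which limits the differences that 3 arrays a group can show. Probe sets near background, such as Eif4e2, may understate change.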
